A study of Rattus norvegicus with 9 samples.

Results

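The SMAD genes of the array were *Smad1*, *Smad2*, *Smad3*, *Smad4* and *Smad5*. They were chosen by name, as every well whose gene symbol begins with Smad, which gave 5 of the 84 target genes on a rat osteogenesis PCR plate. The tissue was the patellar enthesis, the zone where the patellar tendon inserts into the tibia, of adult male Sprague Dawley rats. Native tissue was the healthy, untreated enthesis, by the methods of the contralateral leg of the operated rats, and served as the reference. The methods also state that tissue for RNA was harvested after mechanical testing, and the part of this in the values was not tested. In the S-MT and S-AT groups a defect in the enthesis was filled with a biphasic silk fibroin scaffold, which had a mixed transition between its tendon and bone parts in S-MT and an abrupt one in S-AT. In the empty defect (ED) group the same defect received nothing and the tendon was sutured back over the bone. In the transversal cut (TC) group the tendon was cut near the enthesis with no damage to bone. The label of this group names a tendon-to-tendon suture, whereas the methods name no treatment after the cut. Each of the 4 treatments was taken at 4 and at 12 weeks after surgery, which with native tissue made 9 groups. The label of native tissue gives 4 weeks, and it was set against both times. The design names 8 rats per group, but the tables give a single value per gene and group, and it is not stated whether this stands for 1 rat, a mean or a pool. No difference could therefore be set against a spread between rats, and every value below is a description of these 9 plates with no test.

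SMAD proteins carry the signals of the TGF-beta superfamily from receptors at the cell surface to genes in the nucleus. Smad2 and Smad3 are phosphorylated by the TGF-beta and activin receptors, whereas Smad1 and Smad5 are phosphorylated by the bone morphogenetic protein (BMP) receptors. All of them pair with Smad4, the common partner, before they act on transcription. In tendon and enthesis, TGF-beta signalling is known for its part in tendon progenitors and in scar formation, and BMP signalling for its part in the cartilage and bone side of the insertion. Because the proteins are activated by phosphorylation, an mRNA level is not a measure of their activity.

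The measure was the threshold cycle (Ct), the PCR cycle at which the fluorescence of a well crosses a threshold, so that an earlier Ct means more template. As in the methods of the study, a Ct later than 35 or undetermined was treated as not measured. The reference genes *Ldha* and *Rplp1* had a mean Ct that was earliest in S-AT at 12 weeks (25.7) and latest in native tissue (30.02). Between 20 target genes in native tissue and 83 in ED at 12 weeks had a Ct within the cut-off. A pair of plates stood apart from the rest. In ED at 12 weeks the middle 50% of the target Ct values spanned 1.68 cycles, against 2.34 to 5.99 in the other groups. In S-AT at 12 weeks the wells that usually hold the positive PCR controls came at a mean Ct of 26.0, against 19.1 to 21.9 elsewhere. The well that usually holds the genomic DNA control had a Ct of 29.2 in ED at 12 weeks, 30.4 in TC at 12 weeks and 30.9 in S-MT at 12 weeks, and of 32.5 to 36.5 in the others. Of the 29 SMAD values within the cut-off, 8 came at least 1 cycle before that well, of which 4 were in S-AT at 12 weeks, and the part of genomic DNA in the remaining values was not tested. Markers of tendon and fibrous matrix (*Col1a1*, *Col1a2*, *Col3a1*, *Bgn* and *Comp*) were within the cut-off for 4 or 5 of 5 genes in every group. Their summed level was 129% of the reference genes in S-AT at 12 weeks and 559% to 3273% in the other groups, and its part in the SMAD values was not tested. Markers of bone and endothelial cells and a list of myeloid-related genes had their highest summed levels in ED at 12 weeks. This group had the earliest Ct of every SMAD gene and 83 of 84 target genes within the cut-off. Bone markers (*Bglap*, *Alpl*, *Sp7*, *Phex* and *Sost*) were within the cut-off for 5 of 5 genes there, with a summed level of 33.8%, against 0 to 3 of 5 and at most 13.7% elsewhere, and 0 of 5 in ED at 4 weeks. The myeloid-related genes (*Itgam*, *Csf1*, *Csf2*, *Csf3* and *Tnf*) were within it for 5 of 5 genes at 43.0%. Elsewhere 0 to 4 of 5 were, at no more than 18.9%, and 0 of 5 in ED at 4 weeks. The *Csf* genes and *Tnf* code for secreted factors, so this sum is not a measure of myeloid cells. Endothelial markers (*Flt1*, *Vcam1* and *Icam1*) summed to 23.7%, against at most 10.6% elsewhere and 1.71% in ED at 4 weeks. Other lists were highest elsewhere. Osteoclast markers (*Ctsk* and *Mmp9*) summed to 24.8% in ED at 12 weeks and 158% in S-MT at 12 weeks. The fat marker *Cd36* had 3.31% and 19.7% in the same groups. Fibrocartilage markers (*Col2a1*, *Sox9* and *Comp*) summed to 75.7% in ED at 12 weeks and 231% in ED at 4 weeks. The part of these cell types in the SMAD values of ED at 12 weeks was not tested.

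*Smad2* was, with *Smad4*, the SMAD gene measured in most groups. Its Ct was 35.3 in native tissue, just past the cut-off. It was 31.1 at 4 weeks and 31.0 at 12 weeks in S-MT, with 31.3 and 32.3 for S-AT. It was 33.2 and 29.3 in ED, and 34.5 and 34.3 in TC. The 8 operated groups were all within the cut-off, and ED at 12 weeks was the earliest. A level, given here as 2 to the power of the negative Ct difference from the reference genes and in percent of them, was lowest for *Smad2* in S-AT at 12 weeks (1.05%) and highest in ED at 12 weeks (12.2%). The other operated groups lay between 3.19% and 4.99%.

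*Smad3*, the other TGF-beta mediator, was measured in 5 groups. Its Ct was 36.6 in native tissue. It was 34.4 at 4 weeks and 33.03 at 12 weeks in S-MT, with 34.4 and 34.6 for S-AT. It was 35.2 and 29.5 in ED, and 38.7 and 36.5 in TC. Apart from ED at 12 weeks, no group was earlier than S-MT at 12 weeks. Native tissue, ED at 4 weeks and both TC groups had no measured level. The level was 0.220% in S-AT at 12 weeks, 0.535% and 0.555% in S-MT and S-AT at 4 weeks, 1.01% in S-MT at 12 weeks and 10.1% in ED at 12 weeks.

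*Smad4* was the one SMAD gene within the cut-off in native tissue, at a Ct of 34.5. Its Ct was 32.1 at 4 weeks and 31.1 at 12 weeks in S-MT, and 32.3 at both times in S-AT. It was 33.1 and 30.3 in ED, and 36.2 and 32.8 in TC. TC at 4 weeks was the one group without a measured *Smad4* level, and TC at 12 weeks had the highest level, 12.1% of the reference genes. The lowest was 1.05% in S-AT at 12 weeks, and native tissue had 4.46%. S-AT at 4 weeks had 2.30%, ED at 12 weeks 5.86%, and the other 3 groups values in between.

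Of the BMP mediators, *Smad5* was measured in 7 groups. Its Ct was 37.8 in native tissue. It was 33.3 at 4 weeks and 32.3 at 12 weeks in S-MT, with 33.5 and 33.4 for S-AT. It was 34.0 and 30.9 in ED, and 37.1 and 34.1 in TC. Both groups without a measured level, native tissue and TC at 4 weeks, lay more than 2 cycles past the cut-off. The levels ran from 0.502% in S-AT at 12 weeks to 3.99% in ED and 4.99% in TC at 12 weeks.

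*Smad1*, the other BMP mediator, was measured in 1 group. Its Ct was 31.6 in ED at 12 weeks, a level of 2.47% of the reference genes. It was undetermined in native tissue and in TC at 4 weeks. In the other groups it was 35.9 and 36.1 in S-MT at 4 and 12 weeks, 36.2 and 39.4 in S-AT, 38.1 in ED at 4 weeks and 37.8 in TC at 12 weeks. *Smad1* was the latest of the 5 genes wherever it had a Ct, and the gap between ED at 12 weeks and the next group was over 4 cycles.

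**Figure D1:**
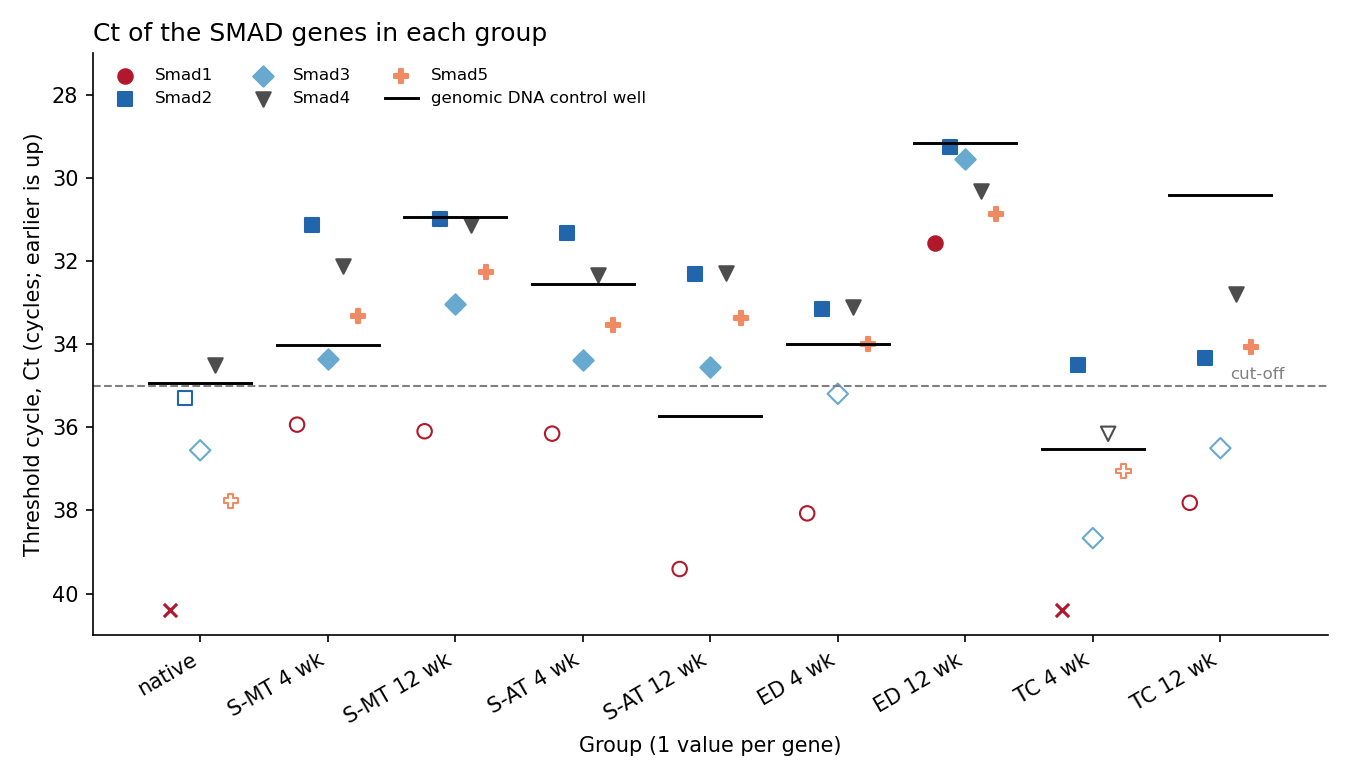
Ct in cycles (vertical axis, earlier Ct at the top) of the 5 SMAD genes in the 9 groups (horizontal axis), 1 value per gene and group. Filled symbols are within the cut-off of 35 (dashed line), open symbols are later, crosses mark undetermined wells, and black bars mark the well that usually holds the genomic DNA control. In ED at 12 weeks all 5 genes lie between 29.3 and 31.6, whereas in native tissue only *Smad4* is above the dashed line.

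The comparison with native tissue asks how far the operated enthesis differed from the healthy one, and for most SMAD genes it gives only a bound. A fold was taken where both groups were measured. Where 1 group was past the cut-off, its Ct was set to 35, so the fold is a limit, written as at least. *Smad4* was the one SMAD gene with a fold in these comparisons. It was 4.24-fold lower than native in S-AT at 12 weeks, where 78.9% of the 19 target genes measured in both were at least 2-fold apart in either direction. With the median of 16 target genes as the reference its log2 fold there was 0.38, above 0. It was 2.70-fold higher in TC at 12 weeks, against 40% of 20 target genes at least 2-fold apart. The other *Smad4* differences were under 2-fold with *Ldha* and *Rplp1* together as the reference. The log2 folds were -0.83 in S-MT and -0.96 in S-AT at 4 weeks, -0.44 in ED at 4 weeks, -0.27 in S-MT at 12 weeks and 0.39 in ED at 12 weeks. The shares of target genes at least 2-fold apart there were 50%, 55%, 65%, 55% and 40% in the same order. With the median of 16 target genes as the reference, the *Smad4* log2 folds were -2.22, -2.07, -1.66, -1.59 and 0.33 in that order. In ED at 4 weeks the sign also changed, with 0.89 for *Ldha* alone and -1.77 for *Rplp1* alone. With all 5 housekeeping genes ED at 12 weeks had 1.43. In TC at 4 weeks, *Smad4* was at least 1.67-fold lower than in native tissue. With *Ldha* alone every log2 fold there shifted by 1.17, against a bound of -0.74, so this direction rested on the reference genes.

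The highest bounds for *Smad2* and *Smad3* were those of ED at 12 weeks, where *Smad2* was at least 3.85-fold and *Smad3* at least 3.17-fold higher than native, and *Smad5* at least 1.26-fold higher. With *Ldha* alone every log2 fold there shifted by -0.39, against a *Smad5* bound of 0.33, which then set no direction. At 4 weeks the bounds for *Smad2* were at least 1.57-fold higher (S-MT), 1.45-fold (S-AT), 1.20-fold (TC) and 1.00-fold (ED), and at 12 weeks at least 1.29-fold (S-MT) and 1.32-fold (TC). With *Rplp1* alone every log2 fold shifted by -1.17 (TC) and -1.33 (ED) at 4 weeks, against *Smad2* bounds of 0.26 and 0.0045. With the median of target genes as the reference the shifts were -1.40 (S-MT) and -1.11 (S-AT) at 4 weeks, against 0.65 and 0.54. In S-MT at 12 weeks the shift was -1.32, against 0.37. These bounds then set no direction. In TC at 12 weeks the lowest shift of any reference was -0.12, against a *Smad2* bound of 0.40. For *Smad5* in TC at 12 weeks the bound was at least 1.57-fold higher. The remaining bounds set no direction, because the late reference genes of native tissue put its cut-off at a high level. These tissues are mixtures of cells, so fewer cells that express a gene and less of its RNA per cell cannot be told apart.

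The comparison of S-MT with S-AT asks whether the transition between the scaffold parts made a difference. At 4 weeks the plates were nearly equal. The 4 measured SMAD genes differed by 0.033 to 0.219 cycles in Ct. After normalisation the log2 folds, S-MT over S-AT, were 0.11 for *Smad2*, -0.05 for *Smad3*, 0.13 for *Smad4* and 0.12 for *Smad5*. None of the 4 was 2-fold apart, and of the 50 target genes measured in both 6% were.

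At 12 weeks all 4 measured SMAD genes were higher in S-MT than S-AT, by 3.91-fold for *Smad2*, 4.57-fold for *Smad3*, 3.52-fold for *Smad4* and 3.37-fold for *Smad5*. In the raw cycles, S-MT came 1.31 cycles earlier for *Smad2*, 1.53 for *Smad3*, 1.16 for *Smad4* and 1.09 for *Smad5*, while the reference genes came 0.66 cycles later. Of all 44 target genes measured in both groups, 90.9% were higher in S-MT by at least 2-fold. The median log2 fold was 1.89 for the SMAD genes and 3.30 for all target genes, 25 target genes had a higher fold than any SMAD gene, and 13 had a lower one. With the median of 16 target genes as the reference, all 4 were lower in S-MT, with log2 folds of -2.04 to -1.60.

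The comparison of the scaffold groups with ED sets a filled defect against an empty one. At 4 weeks none of the 3 measured SMAD genes was 2-fold apart. S-MT over ED gave log2 folds of 0.65 for *Smad2*, -0.39 for *Smad4* and -0.70 for *Smad5*, where 42.5% of 40 target genes were at least 2-fold apart in either direction. S-AT over ED gave 0.54, -0.52 and -0.83 for the same genes, where 34.1% of 41 target genes were. In both, *Smad2* lay above 0 and the other 2 genes below it.

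*Ldha* came 5.69 cycles after *Rplp1* in ED at 4 weeks and 5.38 in TC at 4 weeks, against 2.26 to 3.25 in the other groups. With *Ldha* alone as the reference, *Smad4* and *Smad5* were more than 2-fold lower in both scaffold groups than in ED at 4 weeks, and with *Rplp1* alone *Smad2* was more than 2-fold higher. The signs turned too. *Smad2* had log2 folds of -0.62 (S-MT) and -0.76 (S-AT) over ED with *Ldha* alone, and *Smad4* and *Smad5* had 0.47 to 0.88 with *Rplp1* alone.

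At 12 weeks the SMAD genes were lower in both scaffold groups than in ED. In S-MT, *Smad3* had a log2 fold of -3.32, *Smad2* was 2.98-fold, *Smad5* 2.36-fold and *Smad4* 1.58-fold lower, and *Smad1* was at least 9.62-fold lower. This made 3 of the 4 measured genes at least 2-fold lower, where 48.5% of 66 target genes were. In S-AT, *Smad3* was 45.7-fold, *Smad2* 11.7-fold, *Smad5* 7.94-fold and *Smad4* 5.57-fold lower, and *Smad1* was at least 15.2-fold lower. All 4 measured genes were at least 2-fold lower there, where 77.3% of 44 target genes were. With the median of 16 target genes as the reference 2 of the 4 were, and *Smad4* had a log2 fold of 0.053 and *Smad5* of -0.46. The order of the 4 folds was the same in both comparisons, which share the ED plate. The plate of ED at 12 weeks had its genomic DNA control well at a Ct of 29.2, before all 5 SMAD genes, and the part of this in the folds was not tested.

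The comparison of ED with TC sets an injury that reached bone against one confined to tendon. At 4 weeks only *Smad2* was measured in both, with a log2 fold of -0.25, and *Smad4* was at least 1.23-fold higher in ED. At 12 weeks the genes differed in direction. *Smad2* was 2.92-fold higher and *Smad3* at least 3.83-fold higher in ED than in TC, whereas *Smad4* was 2.06-fold lower and *Smad5* had a log2 fold of -0.32. Of the 3 genes measured in both, 2 were at least 2-fold apart in either direction, where 37.3% of 51 target genes were. The TGF-beta mediators were thus on one side and the common partner on the other, with *Smad4* close to the 2-fold limit. The *Smad4* log2 fold was -0.72 with *Rplp1* alone, -0.98 with the median of target genes and -0.96 at an amplification of 1.9. It was -1.36 with *Ldha* alone and -1.49 with all 5 housekeeping genes. For *Smad1*, a BMP mediator, the log2 bound of -0.09 set no direction. Without a cut-off *Smad1* was 6.62-fold higher in ED. The genomic DNA control wells, at 29.2 in ED and 30.4 in TC, came before every measured SMAD gene, and their part was not tested.

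Between 4 and 12 weeks the treatments differed. In S-MT none of the 4 measured SMAD genes was 2-fold apart, where 39.2% of 51 target genes were. The log2 folds of 12 over 4 weeks were -0.28 for *Smad2*, 0.91 for *Smad3*, 0.56 for *Smad4* and 0.64 for *Smad5*. *Smad2* came 0.13 cycles earlier at 12 weeks, against 0.97 to 1.32 cycles for the other genes.

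In S-AT the SMAD genes were lower at 12 than at 4 weeks, by 4.41-fold for *Smad2*, 2.52-fold for *Smad3*, 2.18-fold for *Smad4* and 1.98-fold for *Smad5*. This made 3 of 4 at least 2-fold lower, where 69.8% of 43 target genes were. The Ct of *Smad3*, *Smad4* and *Smad5* had moved by at most 0.17 cycles, and that of *Smad2* was 0.98 cycles later, while the reference genes came 1.16 cycles earlier. The rest of the plate moved by position. The 18 genes of rows A to D came a median of 3.00 cycles later at 12 weeks, the 4 other genes of row F, where the SMAD wells lie, 0.16 cycles earlier, and the 11 genes of row G 0.76 cycles earlier. The 84 target wells are in alphabetical order of gene symbol, and the part of position in the SMAD values was not tested. With the median of 16 target genes as the reference, all 4 genes were higher at 12 weeks, with log2 folds of 1.44 for *Smad2*, 2.24 for *Smad3*, 2.45 for *Smad4* and 2.59 for *Smad5*.

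In ED the SMAD genes were higher at 12 than at 4 weeks. *Smad2* was 3.83-fold, *Smad5* 2.26-fold and *Smad4* 1.78-fold higher, *Smad3* at least 11.4-fold and *Smad1* at least 2.79-fold higher. Of the 3 genes measured at both times 2 were at least 2-fold higher, where 47.6% of 42 target genes were. In cycles, the 5 genes came between 2.79 (*Smad4*) and 6.50 (*Smad1*) earlier, and the reference genes 1.96 earlier. With *Ldha* alone as the reference none was 2-fold higher among those measured at both times, and *Smad4* and *Smad5* were lower, with log2 folds of -0.88 and -0.54. The genomic DNA control well also came earlier, at 29.2 against 34.0, and its part was not tested.

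In TC, *Smad2* had Ct values of 34.5 and 34.3 and a log2 fold of 0.14, which depended on the reference. It was -1.10 with *Ldha* alone, 1.38 with *Rplp1* alone and 1.89 with all 5 housekeeping genes. *Smad4* and *Smad5* came 3.36 and 2.98 cycles earlier at 12 weeks and were at least 4.51-fold and at least 1.87-fold higher. With *Ldha* alone every log2 fold here shifted by -1.24, against bounds of 2.17 for *Smad4* and 0.90 for *Smad5*. The *Smad4* bound was then under 2-fold, and that of *Smad5* set no direction. The genomic DNA control well came at 36.5 at 4 weeks and at 30.4 at 12 weeks, and its part was not tested.

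**Figure D2:**
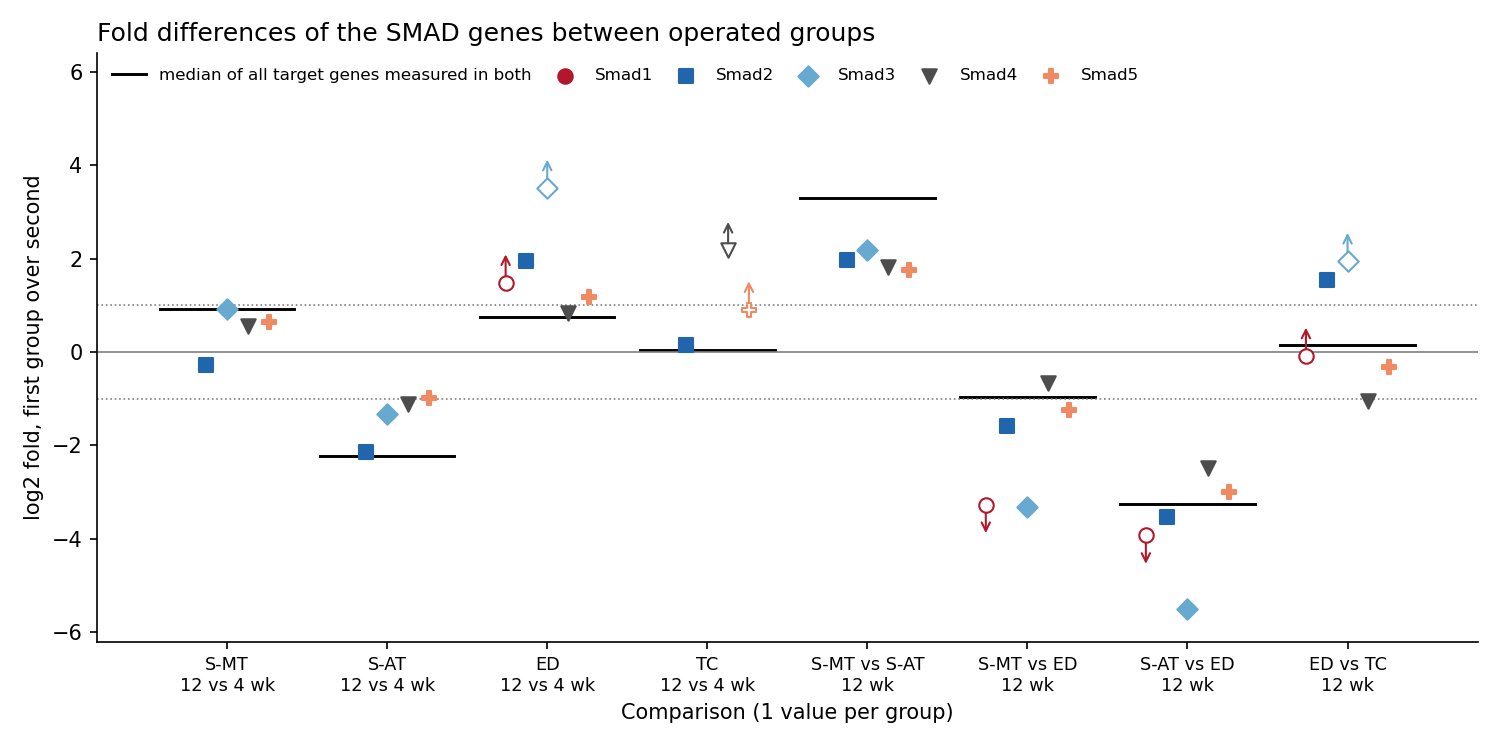
Log2 fold (vertical axis) of each SMAD gene in 8 comparisons between operated groups (horizontal axis), 1 value per group and no error. Filled symbols were measured in both groups, open symbols with arrows are limits whose true value lies in the direction of the arrow, black bars are the median of all target genes measured in both, and dotted lines mark 2-fold. The genes lie below 0 in S-AT over time and above it, or with a limit above it, in ED over time, and their values for S-MT over S-AT at 12 weeks, 1.75 to 2.19, lie under the black bar at 3.30.

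Differences in Ct between SMAD genes of the same plate need no reference gene. Primer efficiencies were not given in the sources used here, so such a difference is not a ratio of transcripts, but its change from group to group can be described. *Smad5* followed *Smad4* at a nearly fixed distance. The Ct of *Smad5* minus that of *Smad4* was 1.22 in S-MT at 4 weeks, 1.13 in S-MT at 12 weeks, 1.21 in S-AT at 4 weeks, 1.07 in S-AT at 12 weeks, 0.90 in ED at 4 weeks, 0.56 in ED at 12 weeks and 1.27 in TC at 12 weeks. The median was 1.13 and the SD over the 7 groups 0.250 cycles, while the Ct values themselves spanned over 2 cycles. In TC at 4 weeks, where both genes were past the cut-off, the deposited Ct values gave 0.90. Native tissue stood apart at 3.26 cycles, but with *Smad5* at a Ct of 37.8.

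**Figure D3:**
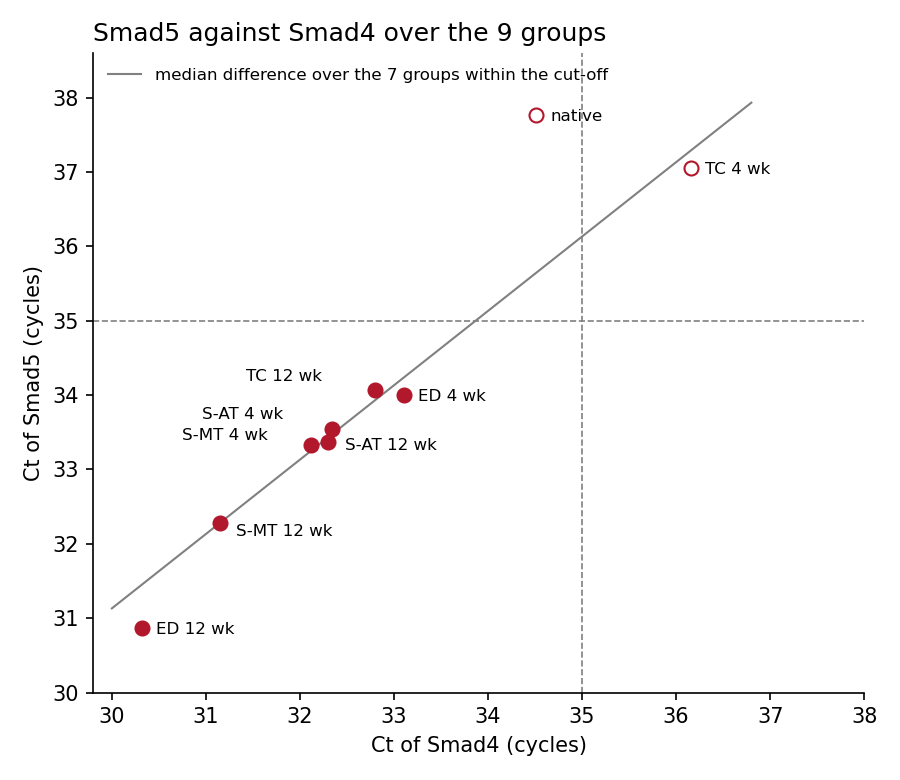
Ct of *Smad5* (vertical axis, cycles) against Ct of *Smad4* (horizontal axis, cycles), 1 point per group. Filled points are the 7 groups with both genes within the cut-off of 35 (dashed lines), open points have at least 1 gene past it, and the grey line marks the median difference of 1.13 cycles. The filled points lie close to the line, ED at 12 weeks is below it, and native tissue is above it.

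Among the TGF-beta mediators, *Smad3* trailed *Smad2* by 3.22 cycles in S-MT and 3.06 in S-AT at 4 weeks, and by 2.03 and 2.25 at 12 weeks. In ED at 12 weeks the distance was 0.28 cycles. The deposited values of ED at 4 weeks, with *Smad3* just past the cut-off, gave 2.04. *Smad3* was accordingly later than *Smad5* by 0.75 to 1.19 cycles in the 4 scaffold groups and earlier by 1.33 cycles in ED at 12 weeks.

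*Smad2* and *Smad4* exchanged order between groups. *Smad4* minus *Smad2* was 0.99 and 1.01 cycles in S-MT and S-AT at 4 weeks, and 0.15 and -0.01 at 12 weeks. It was -0.05 in ED at 4 weeks and 1.06 at 12 weeks, so the 2 scaffold groups and ED moved in opposite directions. In TC at 12 weeks it was -1.53 cycles, the lowest of the 7 groups. *Smad5* came 0.25 cycles before *Smad2* there, and 0.85 to 2.22 cycles after it in the other 6 groups.

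The mean Ct of the BMP mediators minus that of the TGF-beta mediators could be taken within the cut-off in ED at 12 weeks alone, at 1.82 cycles. With the Ct values as deposited, it was 1.82 to 2.96 cycles in the S-MT, S-AT and ED groups and 0.53 in TC at 12 weeks, mostly from *Smad1* and *Smad3* wells past the cut-off.

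**Figure D4:**
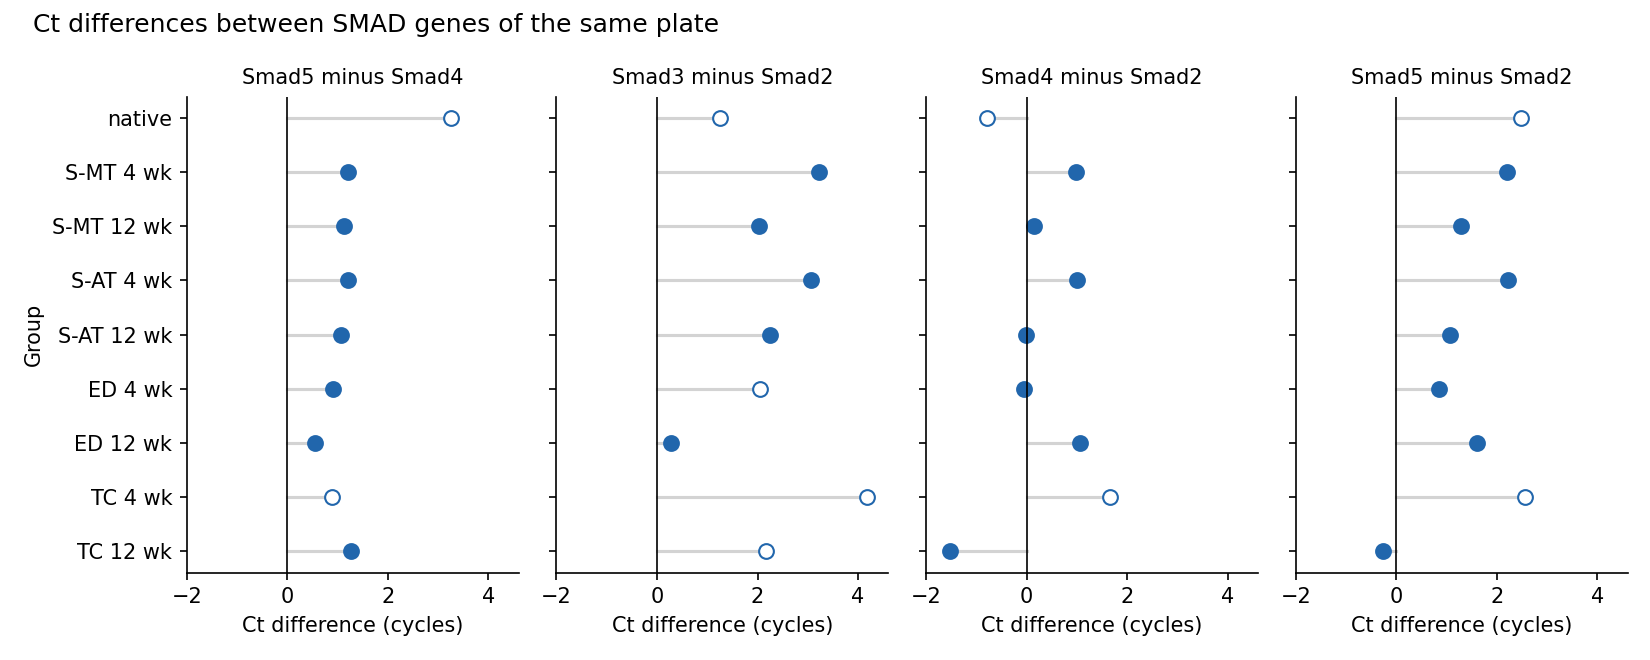
Ct differences in cycles (horizontal axes) between pairs of SMAD genes of the same plate, for the 9 groups (vertical axis), 1 value per group. Filled points have both genes within the cut-off of 35 and open points at least 1 gene past it. *Smad5* minus *Smad4* stays between 0.56 and 1.27 in the 7 filled groups, *Smad3* minus *Smad2* is 0.28 in ED at 12 weeks, and *Smad4* minus *Smad2* runs from -1.53 to 1.06.

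To place these distances among the other genes, the SD of the Ct difference was taken for all 777 pairs of target genes with at least 6 groups in common. *Smad4* and *Smad5* had the smallest SD of all, against a median of 1.67 cycles, with a Pearson r of 0.98 over the 7 groups. They were also the closest of 490 pairs without the ED plate of 12 weeks, with an SD of 0.135, and of 584 pairs without the S-AT plate of 12 weeks. Their wells, F06 and F07, are neighbours on the plate, and the part of position in this closeness was not tested. With the Ct values as deposited, which adds native tissue and TC at 4 weeks, the SD was 0.775 and the pair ranked 98 of 3050. *Smad2* with *Smad5* ranked 96 and *Smad2* with *Smad4* 114 of the 777. All Ct values of a group share a plate and its template amount, and the part of this in the closeness of pairs was not tested.

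The genes nearest to *Smad4* after *Smad5* were *Twist1*, a transcription factor of mesenchymal cells, with an SD of 0.624 cycles over 7 groups, and *Vcam1*, an adhesion molecule, with 0.690 over 6. *Twist1* was also next for *Smad5*, at 0.427 (r = 0.97), followed by the ligand *Tgfb3* at 0.570. *Smad2* was nearest to the ligand *Tgfb1*, at 0.607 over 7 groups (r = 0.93), to *Nfkb1*, a transcription factor of inflammation, at 0.608 over 6, and to the BMP receptor *Bmpr2* at 0.792 over 8. Some of these names changed when 1 plate was left out. Without the S-AT plate of 12 weeks, *Vegfa* was nearest to *Smad2* at 0.488, and *Bmp1* came after *Smad5* for *Smad4* at 0.401. Without the ED plate of 12 weeks, *Bgn* replaced *Nfkb1* among the nearest 3 of *Smad2*, and *Pdgfa* replaced *Vcam1* for *Smad4*. *Twist1* stayed among the nearest 3 of *Smad4* and *Smad5* both times, as did *Tgfb1* for *Smad2*. Neither held with the Ct values as deposited. The nearest 3 were then *Tgfb1*, *Tgfbr3* and *Smad5* for *Smad4*, and *Vcam1*, *Tgfb1* and *Tgfb2* for *Smad5*. For *Smad2* they were *Nfkb1*, *Runx2* and *Flt1*. With a cut-off of 33 they were *Tgfb3*, *Col2a1* and *Comp* for *Smad4*. The part of plate position in these ranks was not tested. *Smad1* and *Smad3* had too few measured groups for such a rank.

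The other genes of the pathway on the array were 10 ligands, 7 receptors, the BMP inhibitors *Chrd* and *Nog*, the protease *Bmp1*, which processes procollagen and frees ligands from inhibitors, and 7 transcription factors, 27 in all. For S-MT over S-AT at 4 weeks, 14 were measured in both groups, with a median log2 fold of 0.07, against -0.03 for all 50 target genes, of which 6% were 2-fold apart. *Nfkb1* was 2.43-fold higher and the receptor *Bmpr1b* 2.14-fold lower, and no other was 2-fold apart. At 12 weeks, 9 of 12 were higher in S-MT by at least 2-fold and none lower, with a median log2 fold of 1.49, against 1.89 for the SMAD genes and 3.30 for all target genes, of which 90.9% were 2-fold higher. *Bmp1* was 19.5-fold and *Bmpr2* 15.3-fold higher, while *Twist1* was 1.81-fold and the TGF-beta receptor *Tgfbr2* 1.64-fold higher. In the alphabetical plate order *Bmp1* and *Bmpr2* lie before the SMAD wells, and *Twist1* and *Tgfbr2* after them. In S-AT, rows A to D came a median of 3.00 cycles later at 12 than at 4 weeks. Row G came 0.76 cycles earlier, and the part of position in these folds was not tested.

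Against ED at 4 weeks, 3 of 11 pathway genes were at least 2-fold higher and 2 lower in S-MT, where 10 and 7 of all 40 target genes were. The TGF-beta receptor *Tgfbr1* was 11.6-fold higher and *Tgfb3* 4.13-fold lower. Against ED at 12 weeks, 16 of 20 were at least 2-fold lower in S-MT, with a median log2 fold of -2.34, and 1 was higher. Of all 66 target genes 48.5% were lower, with a median of -0.97. *Nog* was 37.7-fold and the cartilage factor *Sox9* 24.3-fold lower, and *Tgfbr1* was 5.71-fold higher. In S-AT, 10 of 12 were lower and *Tgfbr1* was 2.03-fold higher, with a median of -3.32, against 77.3% of 44 target genes and a median of -3.25. *Tgfbr1* phosphorylates Smad2 and Smad3, whose genes were lower than in ED in both scaffold groups at 12 weeks. With all 5 housekeeping genes as the reference *Tgfbr1* had a log2 fold over ED of 0.81 for S-MT and -0.21 for S-AT, so its direction for S-AT rested on the reference genes. The genomic DNA control well of ED at 12 weeks, at a Ct of 29.16, came before *Nog* (29.21) and *Sox9* (29.69). Only 6 target genes came at least 1 cycle before it there, and its part in these folds was not tested.

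Over time, 10 of 12 pathway genes were at least 2-fold higher at 12 weeks in ED and none lower, with a median log2 fold of 2.24. Of all 42 target genes 47.6% were higher and 14 lower, with a median of 0.75. The BMP receptor *Bmpr1a* was 12.7-fold and the ligand *Bmp5* 6.08-fold higher, and *Bmpr2* had a log2 fold of -0.11. Every log2 fold in ED over time shifted by -1.72 with *Ldha* alone and by 1.72 with *Rplp1* alone. *Bmp5*, with a log2 fold of 2.60, was under 2-fold with *Ldha* alone. In ED at 12 weeks the genomic DNA control well (29.16) came after *Bmpr1a* (28.60) and before *Bmp5* (30.39), and its part was not tested. In S-MT, 3 of 14 were at least 2-fold higher and none lower, with a median of 0.73, against 39.2% of 51 target genes, all of them higher, and a median of 0.92. *Tgfb2* was 3.80-fold higher. In S-AT, 4 of 11 were at least 2-fold lower and none higher, with a median of -0.52, against -1.23 for the 4 SMAD genes and -2.23 for all 43 target genes, of which 69.8% were lower. *Bmp1* was 17.0-fold and *Bmpr2* 10.4-fold lower there. Both lie before the SMAD wells in the alphabetical plate order, and the part of position in these folds was not tested. In TC, none of the 4 measured at both times was 2-fold apart, where 6 of 23 target genes were.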

How the data were processed

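Tissue RNA was measured by the authors on a 96-well rat osteogenesis plate with SYBR Green. The deposited tables hold the Ct of each well in cycles, and levels that the authors normalized as 2 to the power of the reference mean Ct (*Ldha*, *Rplp1*) minus the gene's Ct. A further table holds the authors' own fold changes over native and was not used. The 7 control wells were identified from the maker's usual layout.

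From the Ct values, folds were computed in Python 3.11.15 (pandas 2.3.3, numpy 2.4.6; matplotlib 3.10.9 for figures). Undetermined wells and wells later than 35 were set to 35, doubling per cycle was assumed, and genes past 35 in both groups had no fold. Differences of at least 2-fold were counted among genes measured in both groups, for 20 comparisons. Over 29 SMAD values, the deposited normalized values differed from these levels by at most 0.0046 (log2). The code was tested on simulated data. A single value per group allowed no test, no error and no leaving out of replicates. Precision is limited by the cut-off and the number of plates.

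All 5 SMAD genes are named, with for each the 3 target genes of smallest SD of the Ct difference over at least 6 groups. In a pathway comparison, up to 4 genes were named from the 2 highest and 2 lowest folds. Members, lists and rules were chosen with earlier results of these data known. Alternatives were other reference genes, a cut-off of 33 or none, an amplification of 1.9 per cycle and the deposited normalized values. Pair differences of *Smad4* or *Smad5* and the likeness without single plates were added after seeing the data.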

Additional observations from a re-analysis of the deposited data

Results flagged for a closer look

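The change from 4 to 12 weeks ran in opposite directions in different treatments. For *Smad2* the log2 fold was -2.14 in S-AT and 1.94 in ED. For *Smad3* it was -1.33 in S-AT and at least 3.51 in ED, and for *Smad4* it was -1.12 in S-AT and at least 2.17 in TC. With 1 value per group these differences were not tested. Their sign depended on the reference genes in S-AT, where the median of 16 target genes gave log2 folds above 0. In ED, *Smad2* had a log2 fold of 0.22 with *Ldha* alone. Of all 43 target genes measured at both times in S-AT, 69.8% were at least 2-fold lower and none higher, with a median of -2.23. In ED 47.6% of 42 were higher and 14 lower, with a median of 0.75. In TC 2 of 23 were higher and 4 lower.

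The well that usually holds the genomic DNA control gave a signal earlier than in native tissue (34.9) in 6 operated groups. At 4 weeks its Ct was 34.0 for S-MT, 32.5 for S-AT and 34.0 for ED. At 12 weeks it was 30.9 for S-MT, 29.2 for ED and 30.4 for TC. All measured SMAD genes came after this well in S-MT, ED and TC at 12 weeks, and its part in their values was not tested.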

How the results depend on the processing

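The 45 SMAD folds measured in both groups gave 329 values under the alternatives. Of these, 275 kept their direction and side of 2-fold, 7 fell under 2-fold and 23 passed it in the same direction. A further 24 changed sign, 10 of them from folds of at least 2-fold and 14 from folds under 2-fold, of which 12 stayed under it. Counts of SMAD genes past 2-fold moved by over 1.5 times as follows. With the median of 16 target genes as the reference, the count went from 4 to 0 for S-MT over S-AT at 12 weeks, from 4 to 2 for S-AT over ED at 12 weeks, from 3 to 0 for S-AT over time and from 2 to 1 for ED over TC at 12 weeks. The folds of at least 2-fold that changed sign had log2 values of -1.83, -1.60, -1.98 and -2.04 for *Smad2* to *Smad5* in S-MT over S-AT at 12 weeks, 1.44, 2.24 and 2.45 for *Smad2* to *Smad4* in S-AT over time (with *Smad5*, from under 2-fold, at 2.59), and for *Smad4* 0.053 in S-AT over ED at 12 weeks and 0.38 in S-AT at 12 weeks over native. With *Ldha* alone, the count was 2 for S-MT and 2 for S-AT over ED at 4 weeks (0 with both references) and 0 for ED over time (from 2), where *Smad4* and *Smad5* changed sign to -0.88 and -0.54. With *Rplp1* alone, it was 1 for S-MT and 1 for S-AT over ED at 4 weeks, and 1 for ED over TC at 12 weeks. With a cut-off of 33, fewer genes were measured and the counts were 2 for S-MT over S-AT, 2 for S-AT over ED and 1 for ED over TC at 12 weeks, and 0 for ED over time, where none was measured. Without a cut-off, 4 genes were apart for ED over TC at 12 weeks and 4 higher for ED over time. An amplification of 1.9 gave 1 for ED over TC at 12 weeks. Counts that moved by 1 gene from 3 or 4, or from 2 to 3, lay between 2 and 4 for S-MT over ED at 12 weeks and for S-AT over time, and were 3 for ED over time and 5 for S-MT over S-AT and S-AT over ED at 12 weeks. The SD of *Smad5* minus *Smad4*, 0.250 cycles, was 0.775 without a cut-off and 0.135 without the plate of ED at 12 weeks. A cut-off of 33 left too few groups for this SD. The cause of these changes was not tested, except where a cut-off changed how many genes were measured.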
